A study of Mus musculus with 30 samples.

Results

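The insulin-like growth factor (IGF) axis was examined as 10 genes taken by symbol, Igf1, Igf1r, Insr, Irs1, Irs2, Igfbp2, Igfbp3, Igfbp4, Igfbp5 and Igfbp6, out of 39179 gene identifiers in the count tables. The tables hold RNAseq counts from the prostate of C57BL/6 mice, whose libraries were made from ventral prostate (VP) RNA. Mice received isocaloric diets of normal fat content that differed in the lipid source, which was linseed oil in the LO mice, soybean oil in the SO mice and lard in the PF mice, and were fed for 12 or 32 weeks after weaning. Each of the 6 groups held 5 mice, for which the labels name no transgene, and the study's methods state that its C57BL/6 mice also went through glucose and insulin tolerance tests, each with an injection, and a cold exposure shortly before the diets ended. Mice at 32 weeks were also older than those at 12 weeks, so that time on the diet and age cannot be told apart. The study asked whether the kind of dietary fatty acid affects the VP, and the comparisons below apply that question to the IGF axis.

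IGF1 is a secreted growth factor that, in the prostate, is made mostly by the stroma and acts on the epithelium through the IGF1 receptor, a tyrosine kinase related to the insulin receptor. Both receptors phosphorylate the adaptors IRS1 and IRS2, which recruit PI3-kinase and so feed the AKT and mTOR pathway. IGF binding proteins hold IGFs outside the cell and can limit or prolong their action, and proteases that cleave them release the ligand.

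Each library had between 27590631 and 41301707 counts in total, and all 10 genes passed the filter on low counts in every comparison. The fewest counts of any of the 10 genes in a mouse were 70, for Irs2. Levels are given as CPM, the counts relative to the library size, after TMM scaling. As a check of the tissue, the 4 markers of VP secretion (Spink1, Sbp, Msmb and Pbsn) summed to 110000 to 337300 CPM per mouse, and the 6 seminal vesicle markers summed to at most 0.276 CPM. The VP was sequenced whole, so fewer cells of a type and less RNA per cell cannot be told apart in any value below.

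The mice that the labels number 1 stood apart from the others of their group in all 6 groups, and this touched 4 of the 10 genes. The comparison of the 6 mice numbered 1 with the 24 others, with group in the fit, was not planned and was chosen after the data had been examined. It called 6200 of 16605 genes (37.3%) at an adjusted p-value under 0.05 in edgeR's quasi-likelihood test, the test used for all adjusted p-values of single genes here. Igfbp6, Igfbp2 and Irs2 were higher and Insr was lower in the mice numbered 1, where 21% of all genes were higher and 16.3% lower. This is 4 of 10 called, a share like that of all genes. The labels do not say what the number stands for, and total counts overlapped, at 29125565 to 41301707 in the mice numbered 1 and 27590631 to 40763802 in the others.

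Igfbp6, a binding protein with a preference for IGF2, gave the clearest separation. Its level was 46.5, 33.8, 43.1, 47.9, 35.0 and 54.8 CPM in the mice numbered 1 of LO, SO and PF at 12 weeks and LO, SO and PF at 32 weeks. The other 24 mice lay between 10.1 and 26.03 CPM, below every mouse numbered 1. The log2 difference was 1.49 (SE 0.124, adjusted p = 3.09e-10 in edgeR).

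Igfbp2, a binding protein that is abundant in many epithelia, showed the same direction with some overlap. The mice numbered 1 had 171.3, 201.5, 155.5, 132.1, 125.1 and 215.9 CPM in the same order, and the others had a median of 59.3 CPM with a range of 31.2 to 141.4 CPM. The log2 difference was 1.29 (SE 0.190, adjusted p = 4.54e-06 in edgeR). Irs2 had 6.60, 6.64, 8.13, 8.97, 7.56 and 3.57 CPM in the mice numbered 1 against a median of 3.21 CPM in the others, with a log2 difference of 0.93 (SE 0.176, adjusted p = 0.000125 in edgeR). In 5 of 6 groups the mouse numbered 1 had the most Irs2, and PF at 32 weeks was the exception.

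Insr was lower in the mice numbered 1 by a smaller amount, with a log2 difference of -0.21 (SE 0.0641, adjusted p = 0.0109 in edgeR). It had 79.4, 78.8, 79.4, 72.7, 85.7 and 58.8 CPM in the mice numbered 1 and 74.8 to 104.8 CPM in the others, so that the ranges overlapped. Without the mouse numbered 1 of PF at 32 weeks, which had the lowest Insr of all mice at 58.8 CPM, the difference was -0.15 and the adjusted p-value 0.0515. The remaining members, Igf1, Igf1r, Irs1, Igfbp3, Igfbp4 and Igfbp5, had log2 differences between -0.29 and 0.32, and none passed the threshold.

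The separation moved with base composition. Over the 16428 genes with an annotated transcript, Pearson's r between the GC content of the longest transcript and the log2 difference of the mice numbered 1 was 0.498 and Spearman's rho 0.622, where genes are not independent replicates. The median log2 difference was -0.16 in the lowest of 5 equal bins of genes by GC content and 0.43 in the highest. Igfbp2, Igfbp6 and Irs2, at 62.1%, 60.7% and 56.6% GC, were the members that lay in the highest bin. Igf1, at 38.0%, lay in the lowest bin, and Insr had 46.8%. Markers of several cell types moved with the number as well, where 21% of all genes were called higher. Called higher in the mice numbered 1 were 5 of 6 smooth muscle markers (median log2 difference 0.306), 3 of 6 luminal (0.133) and 2 of 4 basal epithelium markers (0.31), 2 of 7 fibroblast (-0.136), 1 of 4 endothelium (-0.129) and 1 of 4 skeletal muscle markers (0.721), and none of any list was called lower. The smooth muscle markers summed to 2850 to 3692 CPM in the mice numbered 1 against 1892 to 3249 CPM in the others. The part of these values in the difference was not tested.

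The middle 120 bases of the coding sequences of these genes and of Igf1 are shown to make the base composition visible, read 5′ to 3′ on the coding strand from GENCODE M21 transcripts of GRCm38, with G and C in capitals. The stretch starts at coding base 298 of 714 in Igfbp6, 398 of 915 in Igfbp2, 1922 of 3963 in Irs2, 1999 of 4116 in Insr and 188 of 495 in Igf1.
Igfbp6: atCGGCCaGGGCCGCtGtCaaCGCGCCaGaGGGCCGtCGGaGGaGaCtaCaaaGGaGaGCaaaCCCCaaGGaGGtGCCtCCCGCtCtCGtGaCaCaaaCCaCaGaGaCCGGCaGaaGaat
Igfbp2: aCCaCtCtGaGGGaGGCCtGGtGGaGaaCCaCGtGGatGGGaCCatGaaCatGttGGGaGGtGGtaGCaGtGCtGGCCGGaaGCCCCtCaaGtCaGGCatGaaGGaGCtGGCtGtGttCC
Irs2: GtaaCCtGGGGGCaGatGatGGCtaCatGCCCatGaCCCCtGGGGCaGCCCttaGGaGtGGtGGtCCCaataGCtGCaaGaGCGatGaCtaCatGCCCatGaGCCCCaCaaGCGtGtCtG
Insr: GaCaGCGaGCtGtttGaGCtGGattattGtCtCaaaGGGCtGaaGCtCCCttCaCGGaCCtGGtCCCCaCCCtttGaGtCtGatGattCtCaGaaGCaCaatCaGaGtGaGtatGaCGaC
Igf1: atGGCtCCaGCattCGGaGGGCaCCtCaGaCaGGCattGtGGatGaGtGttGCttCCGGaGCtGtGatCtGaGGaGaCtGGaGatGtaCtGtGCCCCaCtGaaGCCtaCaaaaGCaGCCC

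G or C made up 74, 72 and 71 of the 120 bases of Igfbp6, Igfbp2 and Irs2, 61 of those of Insr and 67 of those of Igf1. The coding sequence of Igf1 had 54.7% GC in all, so that the low value of its transcript lay outside the coding part. Over the whole coding sequence, Igfbp6, Igfbp2 and Irs2 had 63.0%, 65.9% and 63.6% GC. Igfbp3 and Igfbp4, which were not called, had 64.4% and 64.3%, with log2 differences of -0.09 and 0.32.

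**Figure D1:**
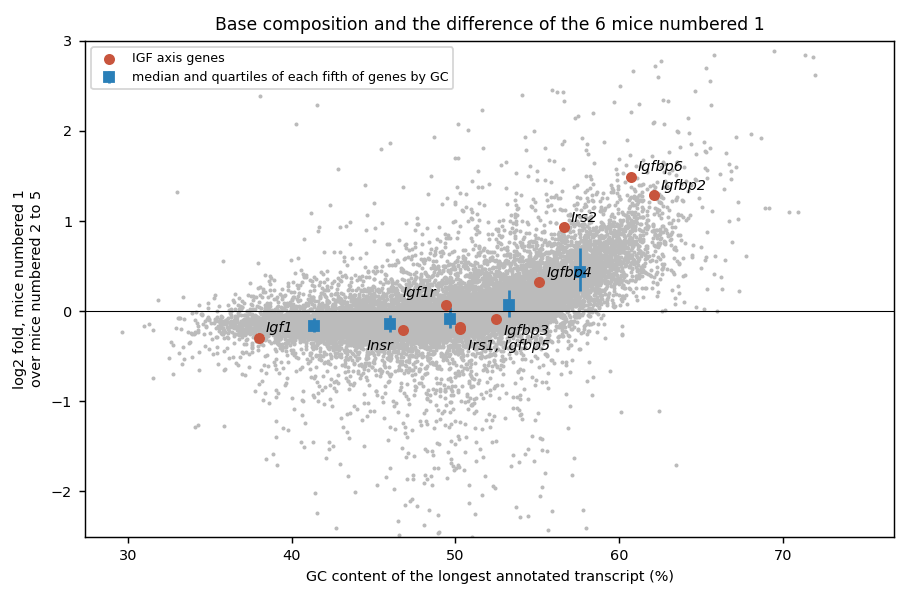
GC content of the longest transcript of each gene (percent, horizontal axis) against the log2 fold of the 6 mice numbered 1 over the 24 others (vertical axis). Grey points are the genes tested (64 lie outside the vertical range), blue squares with bars are the median and quartiles of each of 5 bins of genes by GC content, and the 10 genes of the IGF axis are in red, with Igfbp6, Igfbp2 and Irs2 at the upper right and Igf1 at the lower left.

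The order of the 10 genes by level was set per length, as CPM divided by the exon length in kilobases (kb) and as the median of the 30 mice. Igfbp5, a binding protein that adheres to the extracellular matrix, led at 71.8 CPM per kb, before Igfbp2 at 41.2, Igfbp6 at 15.1 and Igfbp4 at 9.46. Insr followed at 6.27, Igfbp3 at 5.88, Irs1 at 5.31 and Igf1 at 3.61, and Igf1r at 1.16 and Irs2 at 0.583 CPM per kb came last. By the mean over mice, Igfbp5 and Igfbp2 stood above 97.3% and 95.9% of the 16428 genes with a length, and Irs2 above 23.5%.

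Neighbours in this order differed to unequal degrees. Igfbp5 was above Igfbp2 in 24 of 30 mice, and their ranges overlapped in all 6 groups. The medians of the mice numbered 1 were in reverse order, at 65.8 CPM per kb for Igfbp5 and 88.5 for Igfbp2. Among them the LO mouse at 32 weeks still had Igfbp5 above Igfbp2, at 92.9 against 71.5. In the 24 others the medians were 71.75 for Igfbp5 and 32.1 for Igfbp2. Among these the LO mouse numbered 3 at 12 weeks had Igfbp2 above Igfbp5, at 76.5 against 65.7. Igf1 was above Igf1r in 30 of 30 mice, and their ranges were apart in 5 of 6 groups. Igfbp2 was above Igfbp6 in 30 of 30 mice although the ranges were apart in 1 group only. Insr and Igfbp3, and Igfbp3 and Irs1, overlapped in all 6 groups, with the first above the second in 19 and 18 of 30 mice, so these 3 genes had no clear order. The exons of Irs1 share 2822 of 9144 bases with a gene on the opposite strand, Gm9747, and those of Irs2 share 162 of 6323 bases with 9530052E02Rik. The library kit keeps strand, the strand setting of the counting is not given in the sources used here, and the levels of both Irs genes are uncertain to that extent.

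In GENCODE M21 on GRCm38 the ligand gene Igf1 lies at chr10:87858265-87937042 (plus strand), and the receptor genes Igf1r and Insr lie at chr7:67952827-68233668 (plus) and chr8:3122061-3279617 (minus). Igfbp2 at chr1:72824503-72852474 (plus) and Igfbp5 at chr1:72857932-72874884 (minus) are neighbours with converging ends, and Igfbp6 lies at chr15:102144362-102149511 (plus).

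**Figure D2:**
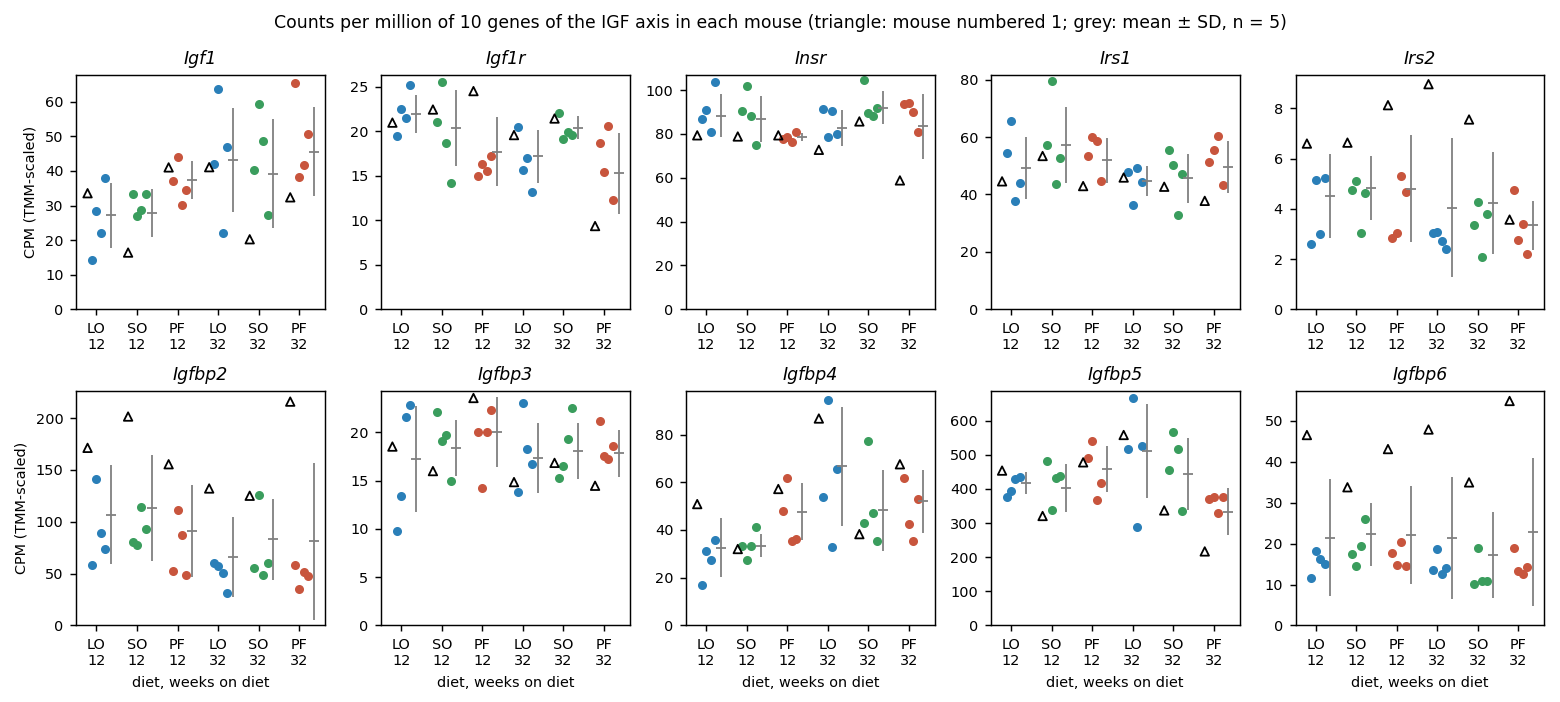
Level of each of the 10 genes (CPM, vertical axes starting at 0) in each of 30 mice, by diet and weeks on the diet. Points are mice numbered 2 to 5, open triangles are the mice numbered 1, and grey bars are the mean ± SD of 5 mice, with the triangles of Igfbp6 above all other mice.

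Diet was compared first at 12 weeks, with the 3 diets in 1 fit of 15 mice. None of the 10 genes was called in any of the 3 comparisons, where 0% of the 15873 genes tested passed the threshold in each. An unadjusted p-value under 0.05 was found for 1269 genes (7.99%) when PF was set against SO, for 1466 (9.24%) when it was set against LO, and for 679 (4.28%) between LO and SO. Without the mice numbered 1, 1 gene (0.00631%, higher) was called for PF against SO and it was none of the 10. The DESeq2 Wald test called 225 (1.32%), 76 (0.522%) and 0 (0%) genes, and none of the 10 among them.

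The ligand Igf1 had 33.6, 14.3, 28.3, 21.9 and 37.9 CPM in the LO mice numbered 1 to 5 at 12 weeks and 16.4, 33.3, 26.9, 28.6 and 33.5 CPM in the SO mice. The PF mice had 41.0, 37.1, 44.2, 30.3 and 34.4 CPM. The PF values sat at the upper end, with the lowest of them above 3 of 5 LO mice and 3 of 5 SO mice, and all 3 ranges overlapped. The log2 fold change was 0.43 (SE 0.229) for PF against SO and 0.47 (SE 0.229) for PF against LO, with adjusted p-values of 0.729 and 0.559 in edgeR.

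Igfbp4, a binding protein that blocks IGF action until the protease PAPP-A cleaves it, ran parallel to the ligand. It had 50.9, 17.2, 31.1, 27.6 and 35.9 CPM in LO mice, 32.0, 33.4, 27.5, 33.4 and 41.1 CPM in SO mice and 57.2, 47.9, 61.9, 35.3 and 36.1 CPM in PF mice. In PF, 3 of 5 mice were above every SO mouse and the other 2 were within the range of the other diets. The log2 fold change was 0.52 (SE 0.226, unadjusted p = 0.0373, adjusted p = 0.557 in edgeR) against SO and 0.56 (SE 0.226, unadjusted p = 0.0253, adjusted p = 0.501) against LO. Without the mice numbered 1 these values were 0.43 and 0.70, with adjusted p-values of 0.729 and 0.325 in edgeR.

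The receptors had negative log2 fold changes in PF at 12 weeks that did not pass the threshold. Igf1r had 24.5, 15, 16.3, 15.5 and 17.2 CPM in PF mice, where the mouse numbered 1 was far above the other 4, against 19.5 to 25.2 CPM in LO and 14.1 to 25.6 CPM in SO. The log2 fold change against LO was -0.30 (SE 0.153, adjusted p = 0.571 in edgeR) with all mice and -0.46 (SE 0.149, unadjusted p = 0.00875, adjusted p = 0.324) without the mice numbered 1. Insr lay between 74.8 and 103.8 CPM in the 15 mice and gave -0.16 (SE 0.0895, adjusted p = 0.605 in edgeR) for PF against LO. The other 6 genes had log2 fold changes between -0.31 and 0.22 in the comparisons of 12 weeks.

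At 32 weeks the 3 comparisons again called none of the 10 genes and 0% of the 16218 genes tested in each. Genes at an unadjusted p-value under 0.05 numbered 1748 (10.8%), 1394 (8.6%) and 565 (3.48%) in the same order, and DESeq2 called 109 (0.716%), 72 (0.419%) and 6 (0.0234%), none of them among the 10. Igfbp5 had 216.9, 369.5, 375.8, 329.8 and 375.9 CPM in PF mice, 558.0, 518.2, 665.3, 288.0 and 527.0 CPM in LO mice and 337.0, 456.3, 567.9, 517.2 and 335.6 CPM in SO mice. In LO, 4 of 5 mice were above every PF mouse and the mouse numbered 4 was below 4 of them. The log2 fold change for PF against LO was -0.61 (SE 0.213, unadjusted p = 0.0118, adjusted p = 0.451 in edgeR), and it was -0.46 (adjusted p = 0.747) without the mice numbered 1.

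Igf1r at 32 weeks had 9.34, 18.7, 15.4, 20.6 and 12.3 CPM in PF mice against 21.4, 22.02, 19.1, 19.9 and 19.5 CPM in SO mice. The SO mice lay close together and 1 PF mouse reached into their range. The log2 fold change was -0.40 (SE 0.177, unadjusted p = 0.0378, adjusted p = 0.442 in edgeR) with all mice and -0.25 (adjusted p = 0.637) without the mice numbered 1. The lowest PF value belonged to the mouse numbered 1, which was also the lowest of all 30 mice for Insr and Igfbp5.

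Over both time points, 4 of 60 values (10 genes in 6 comparisons) had an unadjusted p-value under 0.05, and the lowest adjusted p-value was 0.442. In 0 of these 60 pairs of groups were the ranges of the mice apart. The SE of the log2 fold changes ran from 0.0895 to 0.520, lowest for Insr and highest for Igfbp6.

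**Figure D3:**
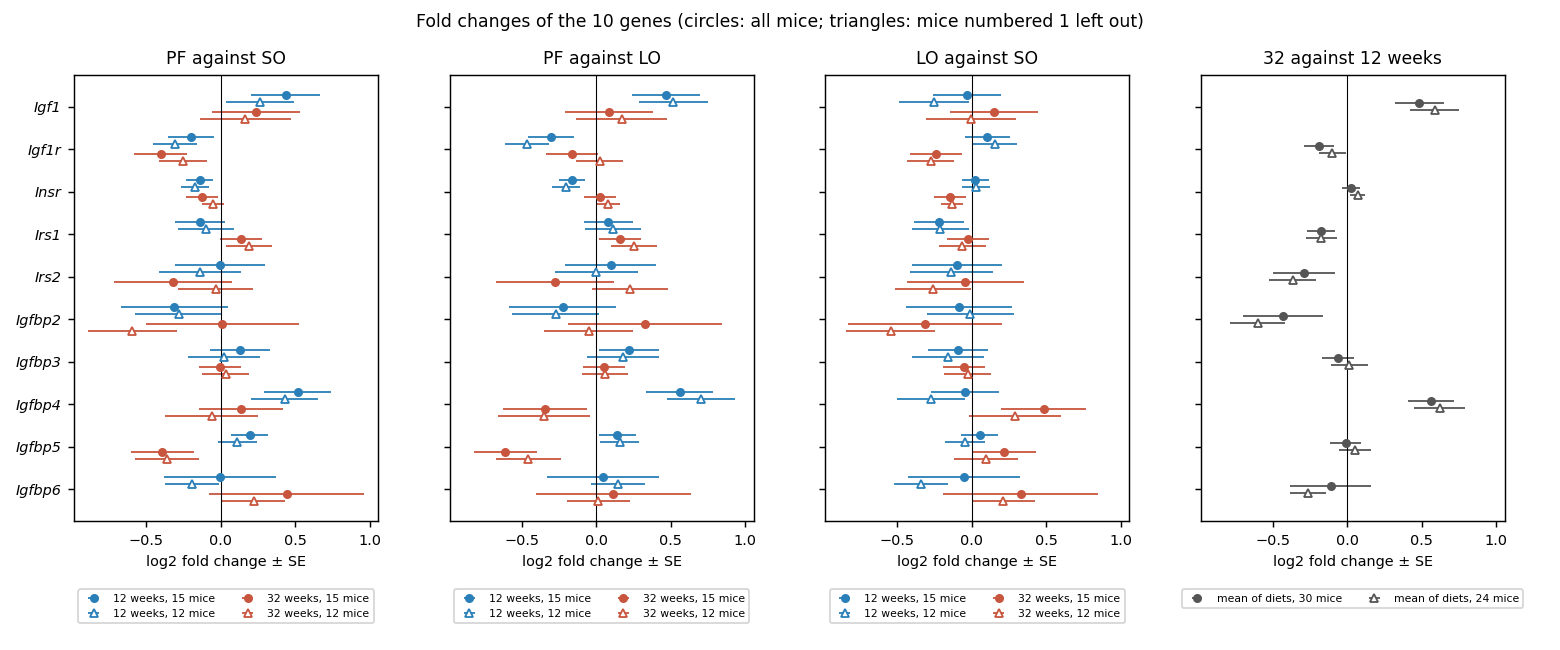
Log2 fold changes with their SE (horizontal axes) of the 10 genes in the 3 comparisons of diets at 12 weeks (blue) and 32 weeks (red), and for 32 against 12 weeks as the mean of the diets (grey). Filled circles are fits with all mice and open triangles fits without the mice numbered 1, and Igf1 and Igfbp4 lie to the right of 0 and Igfbp2 to the left in the comparison of time points.

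Time on the diet was compared with all 30 mice in 1 fit. As the mean over the diets, Igfbp4 and Igf1 rose from 12 to 32 weeks, and no other of the 10 genes was called with all mice. These are 2 of 10 genes against a background of 3301 of 16605 genes, or 19.9%, so the share called was like that of all genes. The median log2 fold change was -0.09 over the 10 genes and -0.0022 over all genes tested.

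Igfbp4 rose by a log2 value of 0.56, with an SE of 0.155 and an adjusted p-value of 0.0120 in edgeR. It had 86.7, 53.7, 94.5, 33.0 and 65.6 CPM in LO mice at 32 weeks, 38.3, 43.1, 77.3, 47.1 and 35.2 CPM in SO mice and 67.5, 61.8, 42.5, 35.5 and 53.0 CPM in PF mice. The median went from 35.3 CPM at 12 weeks to 53.0 CPM at 32 weeks, with ranges of 17.2 to 61.9 and 33.0 to 94.5 CPM that overlapped. By diet, LO had 1.04 (SE 0.270, edgeR adjusted p = 0.0357), SO had 0.53 (SE 0.268, adjusted p = 0.281) and PF had 0.13 (SE 0.267, adjusted p = 0.910). In LO it was 1 of 10 genes called, against 448 of 16605 genes (2.7%), or 1.74% in the higher direction. That call was lost when the LO mouse numbered 2 or 3 at 12 weeks or numbered 1, 3 or 5 at 32 weeks was left out, with adjusted p-values of 0.0618 to 0.132 and changes of 0.89 to 1.07.

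Igf1 rose by 0.48 (SE 0.162, adjusted p = 0.0348 in edgeR), with 41.1, 41.9, 63.9, 21.95 and 47.0 CPM in LO mice at 32 weeks, 20.3, 40.4, 59.4, 48.6 and 27.4 CPM in SO mice and 32.4, 65.4, 38.2, 41.6 and 50.6 CPM in PF mice. Its median was 33.3 CPM at 12 weeks and 41.6 CPM at 32 weeks. By diet the change was 0.67 in LO, 0.50 in SO and 0.29 in PF, and none passed the threshold (adjusted p = 0.173, 0.335 and 0.762 in edgeR). The call of the mean was lost in 8 of 30 fits that left out a mouse, those without the mice numbered 2 in LO, 4 in PF or 1 in SO at 12 weeks or numbered 3 in LO, 2 or 5 in PF, or 3 or 4 in SO at 32 weeks, where the change was 0.43 to 0.48 and the adjusted p-value 0.0504 to 0.0670.

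Without the mice numbered 1, 3 of 10 genes were called for the mean of the diets, against 28.8% of 16538 genes. Igf1 rose by 0.59 (SE 0.167, adjusted p = 0.0141 in edgeR) and Igfbp4 by 0.62 (SE 0.169, adjusted p = 0.0112), and Igfbp2 fell, with a log2 change of -0.60, an SE of 0.183 and an adjusted p-value of 0.0195. With all mice the value for Igfbp2 was -0.43, with an SE of 0.267 and an adjusted p-value of 0.262. In the 24 mice its median was 83.6 CPM at 12 weeks and 53.3 CPM at 32 weeks, with ranges of 48.5 to 141.4 and 31.2 to 126.2 CPM.

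In SO, 0 of 10 genes were called against 6.46% of genes, and in PF 0 of 10 against 0.0301%. Igfbp5 in PF had a log2 change of -0.46 (SE 0.181, unadjusted p = 0.0174, adjusted p = 0.386 in edgeR). The PF mice at 12 weeks had 477.9, 491.1, 539.1, 367.5 and 416.9 CPM, 4 of them above every PF mouse of 32 weeks. For the mean of the diets, Igfbp5 changed by -0.01, Insr by 0.02, Igfbp3 by -0.06 and Igfbp6 by -0.11, and Igf1r, Irs1 and Irs2 had -0.19, -0.18 and -0.29.

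Markers of other cells moved between the time points beside Igf1 and Igfbp4. All 7 leukocyte markers were called higher at 32 weeks for the mean of the diets (median 0.755), where 11.7% of all genes were. They were Ptprc, Cd68, Adgre1, Csf1r, Cd3e, Cd79a and Itgam. Their summed levels were 38.2 to 121.6 CPM at 12 weeks and 57.4 to 208.1 CPM at 32 weeks. Split by diet, their median log2 change was 0.926 in LO and 0.049 in PF with none called, and 1.23 in SO with 5 called. Of 7 fibroblast markers (median 0.11), Dcn (0.38) and Lum (0.86) were called higher and none was lower. The sums of the 7 were 629.7 to 1452 CPM at 12 weeks and 786.5 to 1731 CPM at 32 weeks. Their median change was 0.469 in LO, 0.201 in SO and -0.143 in PF, with none called within a diet. Other lists moved too, with 3 of 4 basal epithelium (median 0.414), 3 of 4 skeletal muscle (2.66) and 1 of 4 endothelium markers (0.133) called higher, and 2 of 6 smooth muscle (-0.2) and 1 of 4 VP secretion markers (-0.0809) called lower, where 8.14% of all genes were lower. Without the mice numbered 1, the setting in which Igfbp2 was called lower, 13.8% of all genes were lower. There 4 of 6 smooth muscle (-0.232) and 2 of 4 VP secretion markers (-0.0518) were called lower. Of 6 luminal epithelium markers (0.0105), 1 was lower and another higher, and 0 of 4 skeletal muscle markers were called. No marker of these lists was at 0 in all mice of a group. For Dcn and Lum, which encode proteoglycans of the stroma, the SE was 0.107 and 0.255. At 12 weeks the 5 PF mice had fibroblast sums of 973.2 to 1452 CPM, against 629.7 to 1143 CPM in LO and 730.6 to 958.1 CPM in SO. Leukocyte sums at 12 weeks were 60.4 to 121.6 CPM in PF, 43.2 to 83.9 CPM in LO and 38.2 to 61.65 CPM in SO. The part of the markers in the changes of Igf1, Igfbp4 and Igfbp2 was not tested.

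The promoter of Igfbp4, the gene called in LO and for the mean of the diets, is shown as the 250 bases before its RefSeq start on GRCm38.p6, at chr11:99040994-99041243, plus strand, with a TATAAA match in capitals.
Igfbp4: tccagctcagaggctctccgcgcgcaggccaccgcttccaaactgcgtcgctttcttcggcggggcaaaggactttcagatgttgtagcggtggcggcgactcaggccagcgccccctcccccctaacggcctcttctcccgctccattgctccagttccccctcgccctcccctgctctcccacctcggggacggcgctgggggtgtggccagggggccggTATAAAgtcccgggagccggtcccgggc

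The TATA box (TATAAA, both strands searched) occurred in 12.4% of the 32851 RefSeq promoters of that length, and the GC box (GGGCGG), the E-box (CACGTG) and the FOXO motif (GTAAACA), found in 32.7%, 6.02% and 3.17% of promoters, had no match in this window. The window had 69.2% GC, above 89.6% of promoters. In GENCODE M21 on GRCm38 Igfbp4 lies at chr11:99041244-99054392 on the plus strand.

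Whether the diet differences changed between 12 and 32 weeks was tested by the interaction in the fit of 30 mice, and 0 of 10 genes and 0% of 16605 genes passed in each of the 3 tests. The unadjusted p-value was under 0.05 for 1576, 1294 and 553 genes in the tests of PF and SO, PF and LO, and LO and SO, and DESeq2 called 44, 5 and 0. The largest value belonged to Igfbp4, whose PF to LO difference went from 0.56 at 12 weeks to -0.35 at 32 weeks, an interaction of -0.91 (SE 0.378, unadjusted p = 0.0235, adjusted p = 0.576 in edgeR). For Igfbp5 the interaction was -0.75 (SE 0.256, unadjusted p = 0.00680, adjusted p = 0.514) for PF and LO and -0.60 (SE 0.256, unadjusted p = 0.0271, adjusted p = 0.432) for PF and SO. Both genes had a positive PF difference at 12 weeks and a negative one against LO at 32 weeks, and without the mice numbered 1 the interactions of PF and LO were -1.06 and -0.62.

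The balance of the receptors was followed as the log2 ratio of Igf1r to Insr counts in each mouse, which is free of the library scaling. It was -2.01 ± 0.0976 (SD, n = 5) in LO, -2.11 ± 0.225 in SO and -2.17 ± 0.272 in PF at 12 weeks, and -2.28 ± 0.266, -2.17 ± 0.104 and -2.49 ± 0.252 at 32 weeks. The lowest p of the 9 comparisons was that of PF against SO at 32 weeks, with a difference of -0.31 (two-sided exact permutation test, p = 0.0635, adjusted p = 0.571 over 18 tests). The smallest p such a test of 5 against 5 mice can give is 0.00794. Without the mice numbered 1, PF against LO at 12 weeks (-0.26) and 32 against 12 weeks in LO (-0.35) both reached an exact p of 0.0286, the smallest that 4 against 4 mice allow. In that setting PF against SO at 32 weeks gave -0.23 (exact p = 0.229). The exact p-values without the mice numbered 1 were not adjusted over the tests.

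The log2 ratio of the adaptors Irs1 to Irs2 was 3.51 ± 0.631 (SD, n = 5) in LO, 3.58 ± 0.371 in SO and 3.53 ± 0.779 in PF at 12 weeks, and 3.65 ± 0.767, 3.54 ± 0.618 and 3.92 ± 0.468 at 32 weeks. Its lowest exact permutation p was 0.302, for PF against SO at 32 weeks with a difference of 0.38 (adjusted p = 0.794). Mice numbered 1 had the lowest ratio in 6 of 6 groups, at 2.36 to 3.402 against 3.07 to 4.40 in the others.

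How the 10 genes varied together within groups was described by Pearson's r of the log2 CPM deviations from the 6 group means. No test was made. The genes of a mouse share its library and scaling, and in the mice numbered 1 the levels moved with base composition. Igf1 went with Igfbp5 (r = 0.821 in 30 mice and 0.805 in the 24 mice not numbered 1) and with Igfbp4 (0.729 and 0.929). Igf1r went with Insr (0.661 and 0.795). Pairs that rested more on the mice numbered 1 were Igfbp2 with Igfbp6 (0.868 and 0.604), Irs2 with Igfbp6 (0.731 and 0.396) and Insr with Igfbp2 (-0.602 and -0.0977).

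**Figure D4:**
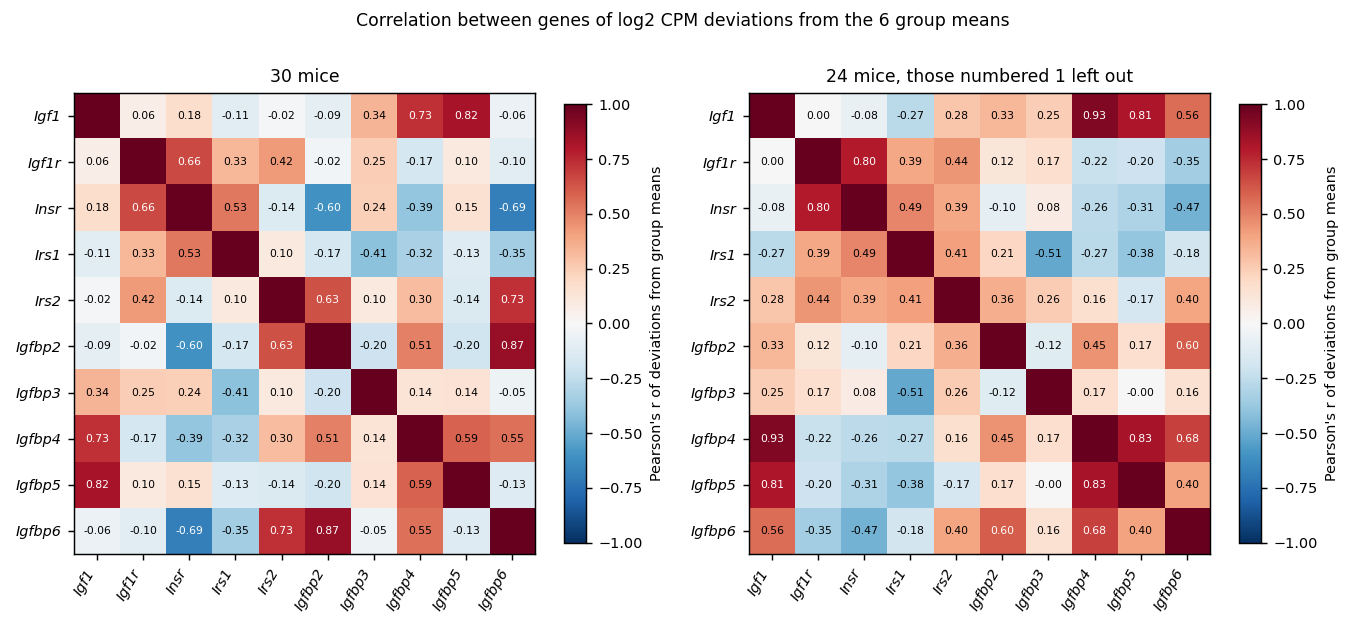
Pearson's r between the 10 genes of log2 CPM deviations from the group means, from -1 (blue) to 1 (red), over 30 mice at the left and over the 24 mice not numbered 1 at the right. Igf1, Igfbp4 and Igfbp5 are positively correlated in both panels, and the values among Igfbp2, Igfbp6 and Irs2 are smaller at the right.

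The ligand and the binding proteins Igfbp4 and Igfbp5 followed the level of 7 fibroblast markers (Col1a1, Col1a2, Col3a1, Pdgfra, Dcn, Lum and Dpt, as mean log2 CPM) within groups. Igfbp4 had r = 0.939 and rho = 0.932 over 30 mice, Igf1 r = 0.817 and rho = 0.818, and Igfbp5 r = 0.701 and rho = 0.703. All 3 were past the threshold among 50 relations of 10 genes to 5 marker lists (permutation test with 100000 shuffles within groups, adjusted p = 0.0001, 0.0001 and 0.00179 for r, and 0.00025, 0.00025 and 0.0005 for rho). The unadjusted p of Igfbp4 and Igf1 was 1e-05 for r and for rho, the smallest these permutations can give, and that of Igfbp5 was 0.00025 for r and 6e-05 for rho. Because the mice numbered 1 stood apart, r was also taken in the 24 others, where it was 0.963, 0.905 and 0.802, with permutation p = 1e-05, 1e-05 and 2e-05 (adjusted p = 0.00025, 0.00025 and 0.000333) and rho of 0.961, 0.877 and 0.732. Without the 2 mice farthest from the median marker level r stayed at 0.915, 0.755 and 0.576 in the remaining 28 of 30 mice. Within 12 weeks it was 0.949, 0.801 and 0.764, and within 32 weeks 0.944, 0.829 and 0.684.

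**Figure D5:**
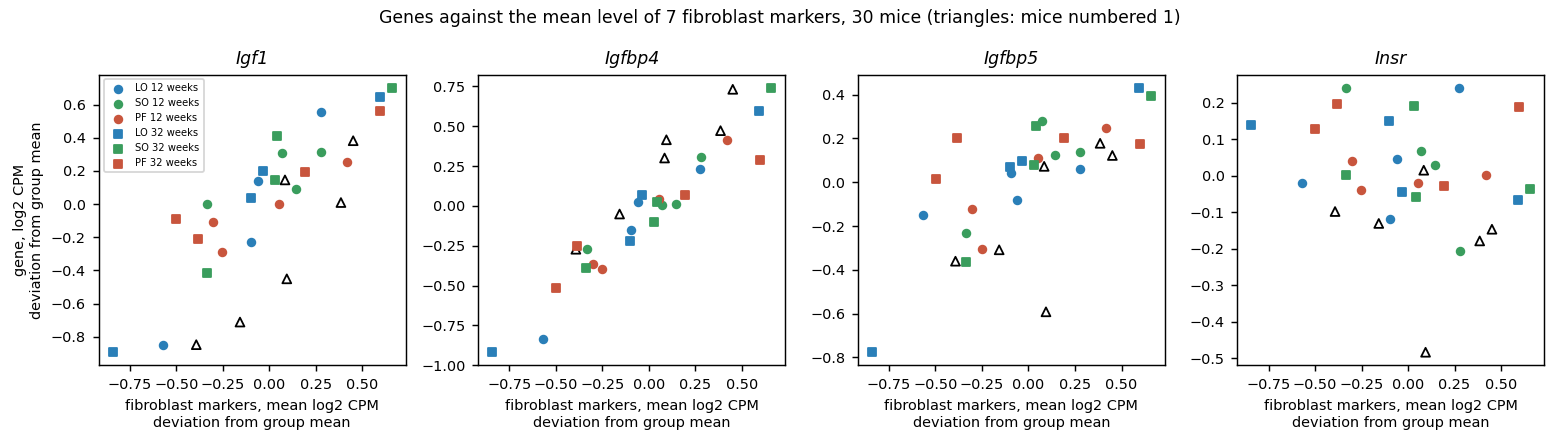
Deviation from the group mean of the log2 CPM of Igf1, Igfbp4, Igfbp5 and Insr (vertical axes) against that of the mean log2 CPM of 7 fibroblast markers (horizontal axes) in 30 mice. Colours are diets, circles are 12 weeks, squares 32 weeks and open triangles mice numbered 1, and Igfbp4 rises most closely with the markers while Insr has no such trend.

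The same 3 genes followed 7 leukocyte markers, with r of 0.757 for Igf1, 0.648 for Igfbp4 and 0.729 for Igfbp5 over 30 mice (permutation test, unadjusted p = 6e-05, 0.00151 and 1e-05, adjusted p = 0.0005, 0.00755 and 0.0001) and rho of 0.746, 0.651 and 0.714. Without the 2 mice farthest from the median r was 0.659, 0.567 and 0.622, within 12 weeks 0.495, 0.586 and 0.579, and within 32 weeks 0.926, 0.690 and 0.813. In the 24 mice it was 0.742, 0.785 and 0.727.

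The receptors and adaptors did not pass the threshold against fibroblast or leukocyte markers, with r between -0.293 and 0.183 over 30 mice. Igfbp6 had r = 0.358 with the fibroblast markers over 30 mice (permutation p = 0.0977, adjusted p = 0.257, rho = 0.553) and r = 0.679 over the 24 (permutation p = 0.00096, adjusted p = 0.00686, rho = 0.748). Of 20 relations to smooth muscle and luminal epithelium markers, 9 passed by r over 30 mice and 0 over 24. With the luminal markers, Igf1, Igfbp5 and Igfbp4 had r of -0.56, -0.641 and -0.0894 over 30 mice. Over the 24 mice these were -0.535, -0.614 and -0.547 (permutation test, adjusted p = 0.146, 0.0844 and 0.143). Within 12 weeks r was -0.108, -0.193 and 0.234, and within 32 weeks -0.85, -0.852 and -0.312, with all mice. None of 10 relations to adipocyte markers passed, with r between -0.246 and 0.298.

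The genes whose deviations were most like those of a member, among 13651 genes of at least 1 CPM on average, are named by a fixed rule of 3 per member, as a description over 30 mice. For Igf1 they were Scn7a (r = 0.938), Slco2b1 (0.927) and C1s1 (0.926), for Igfbp4 Serpinf1 (0.930), Mmp23 (0.922) and Rasgrp4 (0.916), and for Igfbp5 St3gal1 (0.898), Igsf10 (0.890) and Reln (0.884). For Insr they were Nr2c2 (0.941), Strn (0.932) and Ercc6l2 (0.917), and for Igf1r Hipk2 (0.888), Syne2 (0.885) and Foxn3 (0.879). For Irs1 they were Nrip1 (0.825), Atxn7l1 (0.808) and Intu (0.808), and for Igfbp3 Scin (0.900), Sh3gl2 (0.871) and Satb1 (0.852). The genes most like Igfbp6 (Col16a1, Vwa1 and Rcn3, r of 0.967 to 0.971), Igfbp2 (Flot1, Rcn3 and Adam15, 0.891 to 0.904) and Irs2 (Piezo1, Snrk and Zswim4, 0.864 to 0.877) were less alike without the mice numbered 1, at 0.833 to 0.858, 0.664 to 0.701 and 0.674 to 0.704. Those named for Insr and Igf1r were also less alike without these mice, at 0.832 to 0.884 and 0.808 to 0.849.

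The rest of the pathway was taken from a list of 55 further genes, of which 52 passed the filter with all mice. None was called in the 6 diet comparisons. Among the genes with the 2 smallest p-values of each comparison were Pik3cd, the leukocyte form of the PI3-kinase catalytic subunit, at 12 weeks (0.67, SE 0.199, unadjusted p = 0.00399, adjusted p = 0.239 in edgeR against SO), Tsc1, a brake on mTOR (-0.22, SE 0.0708, adjusted p = 0.428 against LO), and Rptor, a subunit of mTOR complex 1, at 32 weeks (-0.39, SE 0.142, adjusted p = 0.462 against LO). Others were Pappa2, a protease of binding proteins (-0.71, adjusted p = 0.324 for PF against SO at 12 weeks), and the adaptor Irs3 (1.21, adjusted p = 0.419 for PF against SO at 32 weeks).

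From 12 to 32 weeks, 9 of the 52 genes were called for the mean of the diets, 4 higher (background 11.7%) and 5 lower (8.14%). Higher were the ligand Igf2 (0.31, SE 0.0986, adjusted p = 0.0258 in edgeR), the protease Htra1 (0.28, SE 0.0769, adjusted p = 0.0109), the signalling inhibitor Socs3 (0.54, SE 0.188, adjusted p = 0.0425) and Pik3cd (0.35, SE 0.127, adjusted p = 0.0497). Lower were Stc2, a stanniocalcin that inhibits the PAPP-A proteases (-0.71, SE 0.113, adjusted p = 0.000264), Mtor (-0.27, SE 0.0632, adjusted p = 0.00481), its partner Rptor (-0.24, adjusted p = 0.0167), its inhibitor Tsc2 (-0.20, adjusted p = 0.00885) and the phosphatase Ptpn11 (-0.16, adjusted p = 0.00381). By diet, LO had Ptpn11 lower (-0.25, adjusted p = 0.0280) and SO had Stc2 lower (-0.88, adjusted p = 0.00948) and Pik3cd higher (0.80, adjusted p = 0.0279). Without the mice numbered 1 the mean of the diets had 6 of 52 genes higher (background 15%) and 9 lower (13.8%), in all the same share as the 28.8% of all genes, with Socs2, Pik3r1, Akt1, Akt2, Inppl1 and Eif4ebp1 added.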

How the data were processed

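RNAseq libraries of 30 mouse ventral prostates were analysed. The authors deposited raw read counts per gene for each mouse, and the submitters' processing notes name TopHat2, HTSeq, DESeq2 and GRCm38.p6. The strand setting of the counting is not given in the sources used here. Reads assigned to no feature (6.67% to 12.2% per library), ambiguous reads and multiple alignments were left out. Totals on genes were 27590631 to 41301707, and at these depths the fewest counts of a member in a mouse were 70.

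Gene symbols and GC content came from GENCODE M21, and promoters from RefSeq. Genes were filtered with filterByExpr, scaled by TMM and tested with edgeR 4.0.16 (quasi-likelihood, Benjamini-Hochberg adjusted p under 0.05) in R 4.3.3. Diets were compared among the 15 mice of a time point, and times and interactions among all 30. SE is the log2 fold change divided by the square root of F. DESeq2 1.42.0, other scalings and filters, a block, a robust fit, other sample sets and leaving out mice were alternatives. Log2 CPM used a prior count of 2. Ratios were compared by exact permutation, two-sided. Scripts were tested on simulated data. Labels do not say how mice were housed or run, so p-values measure the spread between these mice.

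The members, lists and tests were chosen with earlier results of these data known. Named genes are the 10 members, genes of the pathway list past the threshold or with the 2 smallest p-values of a diet comparison, and the 3 genes most like each member.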

Additional observations from a re-analysis of the deposited data

Results flagged for a closer look

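The 10 genes and the ratios Igf1r to Insr and Irs1 to Irs2, each in 6 groups of 5 mice, gave 72 sets. In 11 of them a mouse had a gap to its nearest neighbour over 0.71 of the range of the set. Chance gives about 1 in 20 for independent sets. These sets share mice and genes, so the 11 were not tested against that rate. In 10 of the 11 the mouse with the gap was the mouse numbered 1, already singled out above in these same values. Igfbp6 had such a mouse in LO at 12 weeks (46.5 CPM, next 18.1), PF at 12 weeks (43.1, next 20.4), LO at 32 weeks (47.9, next 18.6) and PF at 32 weeks (54.8, next 19.0). Igfbp2 had it at 32 weeks in LO (132.1 CPM, next 60.3) and PF (215.9, next 58.0), and Irs2 in LO at 32 weeks (8.97 CPM, next 3.06).

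For Igf1r the mouse numbered 1 of PF at 12 weeks had 24.5 CPM (next 17.2), and its log2 ratio of Igf1r to Insr was -1.70 (next -2.24). Igfbp5 was low in the mouse numbered 1 of PF at 32 weeks, at 216.9 CPM (next 329.8). The remaining case was Igfbp4 in the mouse numbered 3 of SO at 32 weeks, at 77.3 CPM (next 47.1).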

How the results depend on the processing

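In the diet comparisons and interactions 0 of 10 genes were called under every alternative run, and leaving out mice gave 0 to 0. From 12 to 32 weeks, leaving out a mouse gave 0 to 1 of the 10 genes called in LO. It gave 1 to 3 for the mean of the diets, and 0 to 0 in SO and in PF. Over all genes these fits called 47 to 1043 in LO, 2595 to 4025 for the mean, 226 to 1556 in SO and 0 to 7 in PF. In the comparison of the mice numbered 1, leaving out a mouse gave 3 to 4 of the 10 genes. For that comparison, 12 weeks alone gave Insr -0.14 (adjusted p = 0.280 in edgeR) and Igfbp3 0.043, 32 weeks alone gave Igf1r -0.081, and leaving out each mouse numbered 1 in turn gave Igf1r -0.063 (without that of PF at 12 weeks) to 0.206. With all mice the values were 0.07 for Igf1r and -0.09 for Igfbp3. The sign differed for Igfbp3 at 12 weeks alone, and for Igf1r at 32 weeks alone and without the mouse of PF at 12 weeks. It was the same for Insr and at the upper end of the Igf1r range, and the cause was not tested. The log2 ratio of Igf1r to Insr for PF against SO at 32 weeks was -0.41 (exact p = 0.00794, the smallest that 4 against 5 mice allow) without the PF mouse numbered 4. Over all genes, 32 against 12 weeks in LO called 448 genes in edgeR and 1059 in DESeq2.

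The labels do not say that a number pairs mice, and the pairs did not all correlate at over 0.1. The correlation of their deviations was 0.309 to 0.495 for 6 pairs numbered 1 and -0.403 to 0.356 for 24 pairs of the other numbers, and 9 of 30 mice correlated best with their own number, 6 of them numbered 1. With the replicate block, 0 of 10 genes were called in each diet comparison and interaction, 1 in LO, 0 in SO and PF, and 3 for the mean of the diets (2 higher and 1 lower). The block moved the genes called for the mean of the diets from 3301 to 4486. The paired exact p of the Igf1r to Insr ratio for PF against SO at 32 weeks was 0.125, and that of Irs1 to Irs2 was 0.188, where 5 pairs can give 0.0625 at the least.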
